A study of Mus musculus with 2 samples.

Results

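Red pulp macrophages of the mouse spleen were taken from a table of unique molecular identifiers (UMIs, counted transcript molecules) as the barcodes that met a fixed UMI rule, and 370 of 6588 kept barcodes did (5.62%, 5.07 to 6.20 by the exact Clopper-Pearson interval). A kept barcode had at least 200 detected genes and at most 10% of its UMIs from mitochondrial genes. A member had at least 3 UMIs of C1qa, C1qb and C1qc together and at least 2 UMIs of Hmox1, Slc40a1, Spic and Vcam1 together. It also had at most 1 UMI of the B cell genes Cd79a, Cd79b and Ms4a1, no UMI of the T cell genes Cd3d, Cd3e and Cd3g, and under 10% of UMIs from the haemoglobin genes Hbb-bs, Hbb-bt, Hba-a1 and Hba-a2. The members were thus chosen by measured UMIs of these genes, whose levels in them are given as a description.

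Red pulp macrophages are resident phagocytes of the splenic red pulp that clear aged and damaged red blood cells from the circulation. Haem from the swallowed haemoglobin is opened by haem oxygenase 1, the product of Hmox1, and the freed iron is stored in ferritin or leaves the cell through ferroportin, the product of Slc40a1. The transcription factor SPIC is needed for their formation, and VCAM1 is an adhesion molecule on their surface.

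The series profiled spleen cells of mice aged 6 to 8 weeks with droplet 3-prime single-cell RNA sequencing, and its title names the Wiskott-Aldrich syndrome, an immune deficiency due to loss of the actin regulator WASP, as the disease modelled. The labels name 2 samples, 1 titled WAS660 for the WAS-KO mouse and 1 titled WT664 for the wild-type mouse, although both carry the disease name as their mouse model, and the kind of Was allele, the strain and the sex are not given. A single count table, with 46882070 UMIs over 7524 barcodes and 31017 gene symbols, ties no barcode to a sample. All values below therefore describe 1 pooled set with no replicate, the genotypes cannot be told apart in it, no test could be made, and differences between sets of barcodes have no replicate check. Intervals in parentheses are exact 95% intervals and cover counting error only. Levels are UMIs summed over a set of barcodes per 1000000 of that set's UMIs (CPM), and a difference between 2 sets is the log2 ratio of their CPM. Was itself, the targeted gene, had 74 UMIs in the members, a level of 93.9 CPM (73.7 to 118), against 63.7 CPM (61.4 to 66.1) in the other kept barcodes. A 3-prime tag outside the deleted sequence would still be counted in a knockout, so the Was level checks no label.

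The members were shallow barcodes. Their totals ranged from 501 to 25581 UMIs with a median of 870, against a median of 5527 UMIs in the 6218 other kept barcodes. Of the 370 members, 319 (86.2%) had under 3000 UMIs and a median of 800, and they are called the shallower members below. The other 51 (13.8%), the deeper members, had 3194 to 25581 UMIs and held 61.4% of all member UMIs. The limit of 3000 UMIs was chosen after the totals had been seen, in a sparse stretch with 6 members from 2500 to under 3000 UMIs and 1 from 3000 to under 3500. No deposited barcode had fewer than 500 UMIs. Sums over all members follow the deeper barcodes, so the main levels are given for all members and for the shallower ones.

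**Figure D1:**
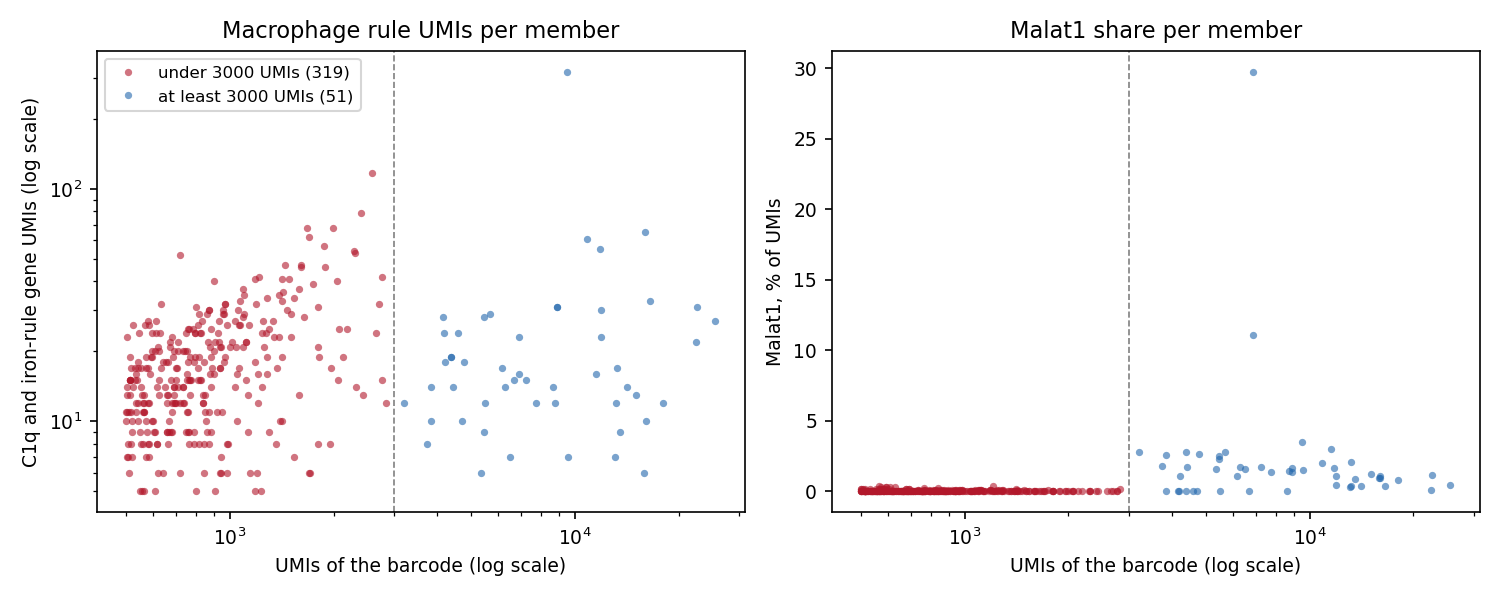
Each point is 1 of the 370 members, with its total UMIs on a log axis against the UMIs of the 7 macrophage genes of the rule (left, log axis) and against the share of UMIs from Malat1 (right), and the dashed line marks 3000 UMIs. The macrophage gene UMIs do not grow with depth beyond the line, with a median of 16 on both sides, and Malat1 is near 0 in the 319 members left of it.

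The label was checked with genes outside the rule. Axl, a receptor for phosphatidylserine-bridging ligands on dead cells that was set as a marker of these cells, had a UMI in 179 of the 370 members. At least 1 UMI of Adgre1 (the F4/80 antigen), Csf1r (the receptor for the macrophage growth factor CSF1), Mrc1, Cd68, Mertk, Fcgr1 or Cd163 was present in 314 members, 265 of the 319 shallower and 49 of the 51 deeper ones. With every barcode thinned to 500 UMIs, Csf1r was seen in 35.7% (30.8 to 40.8) of members, against 0.463% (0.247 to 0.790) of barcodes with B cell genes and 0.204% (0.0247 to 0.735) of those with T cell genes, whose median depths before thinning were 870, 5174 and 6748 UMIs. Mrc1, the mannose receptor, was seen in 24.1% (19.8 to 28.7) of members, against 0 of 2809 B cell barcodes, which allows a share of up to 0.107%, and 0.102% of T cell barcodes. The shares in lymphocytes, which should lack these genes, were far below those in the members. The B and T cell barcodes were themselves set apart by UMI rules and held at most 2 C1q UMIs each. These shares set the members apart from lymphocytes only, and cannot tell red pulp macrophages from other phagocytes. Per UMI both Mrc1 and Adgre1 were lower in the deeper members, with Mrc1 at 765 CPM in the shallower and 138 CPM in the deeper members and Adgre1 at 539 and 141 CPM.

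By a count of marker UMIs, 41 of the 51 deeper members went against the label. There the 7 macrophage genes of the rule did not exceed the UMIs of the leading list of markers of another cell type, which was a monocyte list in 14, a neutrophil list in 8, a nonclassical monocyte list in 8, a natural killer cell list in 6, a dendritic cell list in 3, a T cell list in 1 and an erythroid list in 1. Likewise 41 of the 51 had at least 20 UMIs of some such list, against 4 of the 319 shallower members. Both counts depend on the lists, which differ in the number and level of their genes. They also depend on total UMIs, with a median of 7744 in the deeper and 800 in the shallower members. The rule's macrophage genes had a median of 16.0 UMIs in both, which came to 2.0% of UMIs in the shallower and 0.218% in the deeper members. In 257 kept barcodes that reached both macrophage sums and failed the B cell, T cell or haemoglobin limit, the median was 17.0 UMIs and 0.216%. The share in the deeper members was thus close to that in these 257 barcodes, with median totals of 7744 and 9782 UMIs. Few UMIs are enough to fail the B and T cell limits, so failing them does not show much lymphocyte RNA. Scrublet, a doublet caller, marked 137 of the 6588 kept barcodes (2.08%) and none of the 370 members. Whether the deeper members hold RNA of more than 1 cell was not tested, and they are called by the rule and not as macrophages below.

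**Figure D2:**
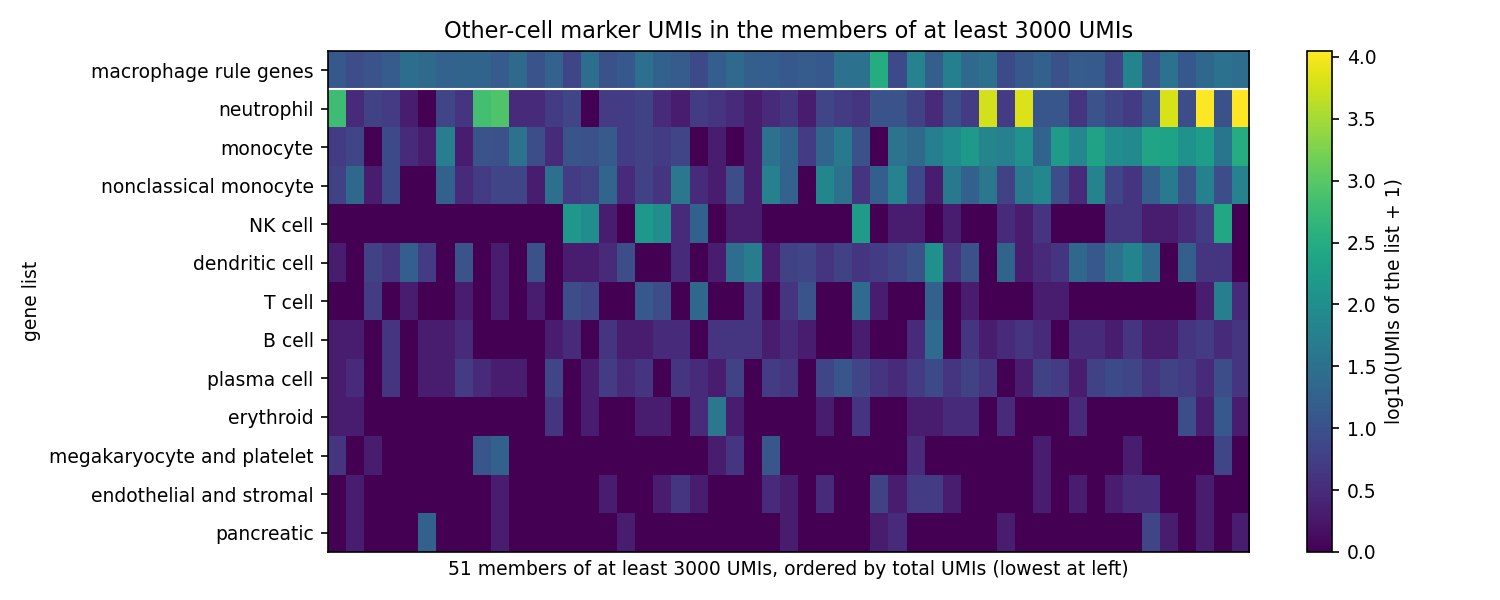
UMIs of the 7 macrophage genes of the rule (top row) and of each marker list of another cell type (rows below) in the 51 deeper members, 1 column each in order of total UMIs, coloured by log10 of the UMIs plus 1. Neutrophil, monocyte and natural killer cell lists are bright in separate columns, with up to 11201 UMIs of the neutrophil list, and 1 column stands out for its 319 macrophage UMIs.

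A single deeper member stood apart from the others. It had 9482 UMIs and 3346 genes, and the rule's genes made up 3.36% of its UMIs, against at most 0.675% in any other deeper member. Its UMIs numbered 35 for C1qa, 29 for C1qb, 31 for C1qc, 55 for Hmox1, 36 for Slc40a1, 12 for Spic and 121 for Vcam1. Of genes outside the rule it had 21 UMIs of Csf1r, 16 of Mertk, 16 of the haemoglobin scavenger receptor gene Cd163, 17 of Cd5l, 14 of the transferrin gene Trf and 12 of Axl. Its leading list of another cell type had 15 UMIs. It was 1 barcode, so its values carry no spread.

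Among the genes of the rule, all 3 C1q chains had a UMI in 278 of the 370 members, 2 of them in 79 and 1 in 13. The C1q sum ran from 3 to 95 UMIs with a median of 8.00, and the sum of the other 4 genes from 2 to 224 with a median of 6.00. Hmox1 had a UMI in 290 members, Vcam1 in 287, Slc40a1 in 229 and Spic in 180, and 82 members had all 4 genes. Without Hmox1, which many phagocytes can switch on, 305 members would still reach the sum of 2, and 14 reached it by Hmox1 alone. In the shallower members, Hmox1 stood at 3629 CPM (3418 to 3849), Slc40a1 at 1320 CPM (1194 to 1456), Spic at 805 CPM (707 to 912) and Vcam1 at 2768 CPM (2585 to 2962). In all members the levels were 1739, 673, 378 and 1405 CPM in the same order, and in the other kept barcodes 48.8, 27.9, 11.4 and 42.4 CPM. Just inside the limits lay 32 barcodes with a C1q sum of 3 and just outside it 30 with a sum of 2 that met every other part. Likewise 45 lay inside with an iron gene sum of 2 and 40 outside with a sum of 1, 71 inside with 1 B cell UMI and 15 outside with 2, and 22 inside with 9 to 10% mitochondrial UMIs and 26 outside with 10 to 11%. No barcode lay near the haemoglobin limit on either side.

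Compared with the other kept barcodes, the members were at least 2-fold higher in 1582 of the 10587 genes with at least 100 UMIs over both sets (14.9%) and at least 2-fold lower in 1350 (12.8%). Asking also that the counting interval leave out 0 gave 1482 (14.0%) and 877 (8.28%). For the shallower members the shares were 22.2% higher and 19.3% lower of 10557 genes, and for the deeper ones 16.7% and 10.9% of 10555. Against 887 other kept barcodes that also had under 3000 UMIs, with a median of 1132, the shallower members were at least 2-fold higher in 12.3% and lower in 13.3% of 2130 genes, and this is called the depth-matched comparison. The list counts below are to be read beside these shares, which are repeated only in part. A gene scarce in the other set reached 100 UMIs only by being high in the members. In the depth-matched comparison, for example, Mrc1 had 233 UMIs in the shallower members and 35 in the other barcodes. Depth-matched counts of higher genes in a macrophage list are thus partly set by this filter and are a description. Outside the rule's genes, the largest ratios over the other kept barcodes belonged to Sct, Fcna, Cmbl, Timd4, Marco, Ctrb1, Clec4n, Cd5l and C6, with log2 ratios of 5.88, 5.67, 5.57, 5.40, 5.37, 5.32, 5.29, 5.29 and 5.24. Some of these rest on few barcodes: of the 55 Sct UMIs 43 came from 2 deeper members, and of the 211 UMIs of Ctrb1, a digestive protease of the pancreas, in the shallower members 199 came from 1 barcode. The lowest were B and T cell genes, among them Vpreb3 at -5.92, Cr2 at -5.91 and Ebf1 at -5.82, in a set whose rule limits B and T cell UMIs.

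Genes of tissue macrophages in general were higher in the members. Of 21 core macrophage genes tested, 18 were at least 2-fold higher in the members and none lower, with a median log2 ratio of 2.97 against 0.05 over all genes. In the shallower members it was 19 and none lower, with a median of 3.84, and in the depth-matched comparison all 9 genes that could be tested. Adgre1 ranged from 0 to 9 UMIs with a median of 0 over the 370 members and had a UMI in 130 of them. Its level was 294 CPM (258 to 335) in the members and 539 CPM (459 to 628) in the shallower ones, against 15.0 CPM (13.8 to 16.2) in the other kept barcodes, a log2 ratio of 4.30 (4.08 to 4.52) for all members. Csf1r ranged from 0 to 22 UMIs with a median of 1 and stood at 756 CPM (696 to 819) in the members, against 48.6 CPM (46.6 to 50.7) elsewhere, a log2 ratio of 3.96 (3.82 to 4.09). Mrc1 stood at 381 CPM (339 to 426), against 13.5 CPM (12.4 to 14.6), and its log2 ratio of 4.82 (4.61 to 5.02) was 4.72 (4.20 to 5.28) in the depth-matched comparison. Mertk, the receptor by which macrophages take up dying cells, had 58 UMIs in the members and a log2 ratio of 4.58 (4.11 to 5.04). Selenop, which encodes the secreted selenium carrier, and Glul, glutamine synthetase, had log2 ratios of 3.57 (3.43 to 3.70) and 2.70 (2.50 to 2.90). The adaptor gene Dok3, in the same list, stood at 64.7 CPM in the members against 70.7 CPM, with a log2 ratio of -0.13 (-0.56 to 0.27).

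Promoters of the macrophage genes Cd68, Fcgr1 and C1qb are shown because they hold GAGGAA, the core letters that PU.1 and its relative SPIC recognise. The windows are the 250 bases before the start in RefSeq (GRCm38.p6), printed 5′ to 3′ on the gene's strand, and capitals mark GAGGAA or its reverse complement TTCCTC.
Cd68 promoter (chr11:69666171-69666420, minus strand): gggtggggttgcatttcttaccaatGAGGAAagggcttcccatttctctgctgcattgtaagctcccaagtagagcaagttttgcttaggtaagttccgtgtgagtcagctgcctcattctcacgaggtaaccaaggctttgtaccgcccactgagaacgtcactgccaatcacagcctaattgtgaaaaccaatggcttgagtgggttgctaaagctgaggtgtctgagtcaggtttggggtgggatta
Fcgr1 promoter (chr3:96293970-96294219, minus strand): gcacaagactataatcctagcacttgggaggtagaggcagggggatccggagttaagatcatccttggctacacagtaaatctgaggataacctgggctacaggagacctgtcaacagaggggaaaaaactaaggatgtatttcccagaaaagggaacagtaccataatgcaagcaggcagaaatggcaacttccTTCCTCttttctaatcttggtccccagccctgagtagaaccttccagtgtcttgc
C1qb promoter (chr4:136886201-136886450, minus strand): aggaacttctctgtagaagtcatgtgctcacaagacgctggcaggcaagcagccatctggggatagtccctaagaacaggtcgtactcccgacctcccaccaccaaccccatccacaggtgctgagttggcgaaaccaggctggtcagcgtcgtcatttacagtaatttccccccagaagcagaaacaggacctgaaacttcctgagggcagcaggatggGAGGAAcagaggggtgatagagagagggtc
The motif was searched on both strands in windows from 250 bases before to 50 bases after each start and its letters can overlap those of TGANNNNGC, described with the lysosomal genes. It occurred in 9 of 20 windows of 17 core macrophage genes (45.0%), 5 of 37 windows of 23 haem and iron genes (13.5%), 7 of 35 windows of 21 transcription factor genes and 7639 of all 32851 windows (23.3%). In the lysosomal genes GAGGAA occurred in 8 of 33 windows (24.2%). A match describes these letters and is not a binding site.

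Receptors for dead cells and for modified proteins and lipids were also higher. Of 24 tested, 17 were at least 2-fold higher in the members and none lower, and of 23 tested in the shallower members 18 were higher and 1 lower. In the depth-matched comparison the counts were 9 and 1 of 11. Cd5l, a secreted scavenger receptor family protein of tissue macrophages, ranged from 0 to 17 UMIs with a median of 0 over the members and stood at 454 CPM (408 to 504), against 11.6 CPM (10.6 to 12.7), with log2 ratios of 5.29 (5.09 to 5.49) and, depth-matched, 4.40 (3.98 to 4.85). Axl stood at 402 CPM (359 to 449), against 13.2 CPM (12.2 to 14.3), and its log2 ratio of 4.93 (4.73 to 5.13) was 3.92 (3.52 to 4.34) when depth-matched. Cd163, which binds haemoglobin held by haptoglobin, had 72 UMIs and a log2 ratio of 4.94 (4.50 to 5.36), and Sirpa, whose protein reads the CD47 signal on red cells, one of 3.75 (3.59 to 3.90). Cd47 itself stood at 600 CPM in the members and 404 CPM in the other kept barcodes. Of 9 genes tested from a list of other splenic macrophages, which shares genes such as Marco, Timd4, Cd5l and Nr1h3 with other lists, 8 were at least 2-fold higher in the members and none lower, with a median log2 ratio of 4.91. In the shallower members 7 of 9 were higher and none lower, and depth-matched 7 of 8. Marco, a scavenger receptor of marginal zone macrophages, had 114 UMIs in the members, the phosphatidylserine receptor gene Timd4 had 99 and the secreted phospholipase gene Pla2g2d 181, with log2 ratios of 5.37 (5.01 to 5.73), 5.40 (5.01 to 5.78) and 5.16 (4.88 to 5.44). Some other genes of resident macrophages were at or near 0: Vsig4 and Cd209b had no UMI in the members, which allows up to 3 counts each, Stab1 had none, Siglec1 had 6 and Trem2 4.

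In haem and iron handling, the ferritin genes, which store iron, were higher outside the rule and the transferrin receptor gene was not. Of 26 genes tested, 17 were at least 2-fold higher in the members and none lower, a count that includes the rule genes Hmox1 and Slc40a1. In the shallower members it was 15 higher and 5 lower of 26, and depth-matched 11 higher and 2 lower of 16. The ferritin genes had a UMI in all 370 members. Ftl1, the ferritin light chain, ranged from 1 to 157 UMIs with a median of 16.0 and stood at 10082 CPM (9862 to 10306) in the members, against 1605 CPM (1594 to 1617) in the other kept barcodes, a log2 ratio of 2.65 (2.62 to 2.68). Fth1, the heavy chain, stood at 7652 CPM (7460 to 7848), against 1841 CPM (1828 to 1853), with a log2 ratio of 2.06 (2.02 to 2.09) that was 1.38 (1.32 to 1.43) depth-matched. Both ferritin genes have near-identical copies in the genome, so their counts are uncertain where reads were split between copies. Slc48a1, which exports haem from the phagolysosome, had a log2 ratio of 1.95 (1.68 to 2.20) and Slc11a1, the phagosomal metal transporter NRAMP1, one of 4.25 (3.94 to 4.56). Of the biliverdin reductases, which act after haem oxygenase, Blvra had 2.44 (2.15 to 2.71) and Blvrb 1.35 (1.20 to 1.50) in all members, and Blvrb had -0.56 (-0.93 to -0.20) in the deeper ones. Ncoa4, which delivers ferritin to the lysosome, had a log2 ratio of 1.45 (1.20 to 1.69).

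Trf, the transferrin gene, ranged from 0 to 14 UMIs with a median of 1 and stood at 639 CPM (585 to 698), against 25 CPM (23.5 to 26.5), a log2 ratio of 4.68 (4.52 to 4.83) that was 4.29 (3.94 to 4.65) depth-matched. Tfrc, the receptor that takes up transferrin iron, stood at 31.7 CPM (20.5 to 46.8) in the members, against 49.7 CPM (47.7 to 51.9), with a log2 ratio of -0.65 (-1.28 to -0.08). Slc11a2, which moves endosomal iron into the cytoplasm, had 4 UMIs in the members and Hamp, the ferroportin-blocking hepcidin, none. Hp, haptoglobin, had 2 UMIs in the shallower and 172 in the deeper members, at 6.57 and 355 CPM, against 837 CPM in classical monocytes. Bach1, the haem-sensing repressor of Hmox1, likewise had 4 UMIs in the shallower and 47 in the deeper members.

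**Figure D3:**
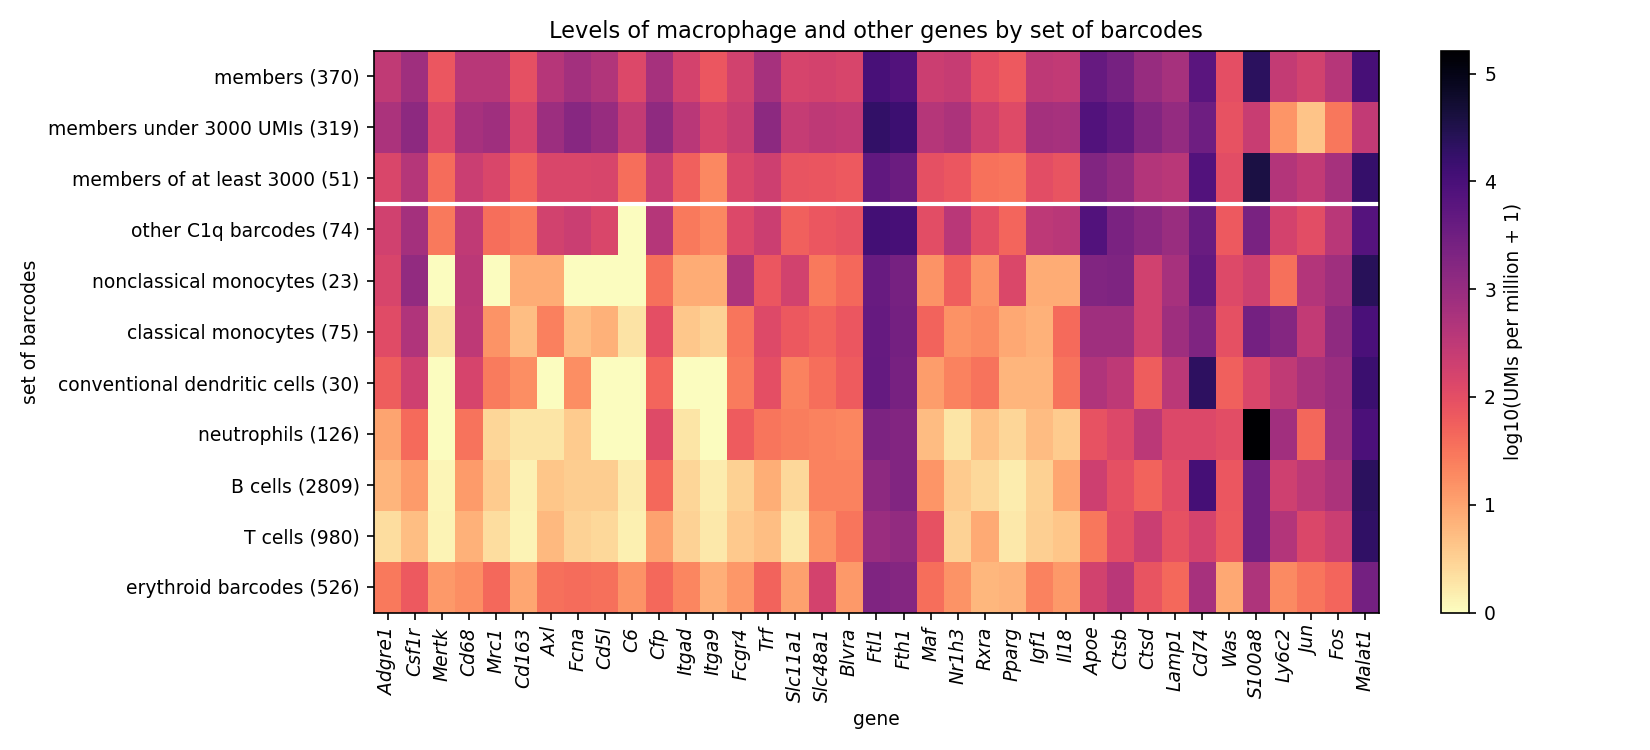
Levels of macrophage and other genes (columns) in the members, both depth sets of members and 8 other sets of barcodes (rows, with the number of barcodes), coloured by log10 of CPM plus 1. Most macrophage genes are darkest in the shallower members, for example Axl at 818 CPM against 3.12 CPM in B cells, while S100a8, Jun and Fos are darker in the deeper members.

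Some transcription factor genes differed between the shallower and the deeper members. Of 10 tested between these sets, 4 were at least 2-fold higher and 3 lower in the deeper. Over all 1130 genes tested between them, 14.1% were higher and 14.0% lower. Of 23 tested against the other kept barcodes, 15 were at least 2-fold higher in the members and 2 lower, a count that includes Spic, and the depth-matched counts were 3 higher and 1 lower of 10. Maf, which encodes the basic leucine zipper factor c-MAF, ranged from 0 to 10 UMIs with a median of 0 and stood at 407 CPM (339 to 486) in the shallower members and 90.9 CPM (66.1 to 122) in the deeper, against 37.8 CPM (36.1 to 39.7) in the other kept barcodes. Its log2 ratio was 2.49 (2.26 to 2.72) for all members. Nr1h3, which encodes the oxysterol receptor LXR alpha needed for splenic marginal zone macrophages, had 4.91 (4.65 to 5.16), its partner Rxra 4.09 (3.70 to 4.47) and Pparg, a lipid-sensing receptor, 4.47 (3.98 to 4.95). These genes were at a higher level in the shallower than in the deeper members.

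Spi1, which encodes the myeloid factor PU.1, was level between the sets, at 365 CPM (300 to 439) in the shallower and 442 CPM (385 to 506) in the deeper members, against 120 CPM (117 to 123) elsewhere. Cebpb and Klf2 showed the reverse order, Cebpb at 207 CPM in the shallower and 767 CPM in the deeper members, against 1512 CPM in classical monocytes. Klf2 stood at 78.8 CPM in the shallower and 719 CPM in the deeper members, against 904 CPM in the other kept barcodes. Irf4 and Id3 were the lower members of the list, with 5 and 3 UMIs and log2 ratios of -2.49 (-4.11 to -1.26) and -3.72 (-6.00 to -2.17). Gata6, the factor of peritoneal macrophages, had no UMI in the members.

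Complement genes and Fc receptors were mostly higher. Of 9 complement genes tested, 7 were at least 2-fold higher and 1 lower both in all members and in the shallower ones, including the 3 C1q chains of the rule. Outside the rule, C6, a component of the membrane attack complex, had 101 UMIs in the members and a log2 ratio of 5.24 (4.86 to 5.61). Cfp, properdin, ranged from 0 to 19 UMIs with a median of 1 and stood at 615 CPM (562 to 672), against 43.7 CPM (41.7 to 45.7), with a log2 ratio of 3.82 (3.67 to 3.96). Fcna encodes a ficolin, a secreted lectin of the complement system, and ranged from 0 to 12 UMIs with a median of 1 over the members. It stood at 680 CPM (623 to 740) in the members and 1537 CPM (1401 to 1683) in the shallower ones, against 13.3 CPM (12.3 to 14.5) in the other kept barcodes, a log2 ratio of 5.67 (5.50 to 5.84). Cd55, which limits complement on the cell's own surface, was lower, at 20.3 CPM against 173 CPM, a log2 ratio of -3.09 (-3.90 to -2.39). Of 12 Fc and complement receptor genes, 9 were higher and none lower in the members, 7 higher and 3 lower in the shallower ones, and depth-matched 5 higher and 1 lower of 7. The activating IgG receptor genes Fcgr1, Fcgr3 and Fcgr4 had log2 ratios of 3.62, 3.10 and 4.01, their shared signalling chain Fcer1g 2.68 and the neonatal Fc receptor Fcgrt 3.30. Fcgr2b, the inhibitory receptor, stood at 23.0 CPM in the shallower and 124 CPM in the deeper members, against 55.5 CPM elsewhere.

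The alpha chains of the beta 2 integrins parted the shallower from the deeper members. Itgad, the alpha D chain known from splenic red pulp macrophages, stood at 358 CPM (294 to 432) in the shallower and 53.7 CPM (35.1 to 78.7) in the deeper members, against 7.28 CPM (6.50 to 8.12) in the other kept barcodes, and its depth-matched log2 ratio was 4.50 (3.79 to 5.29). Itgam, the alpha M chain of CD11b that red pulp macrophages carry little of, had 1 UMI in the 319 shallower and 78 in the 51 deeper members, and stood at 217 CPM in classical monocytes. Itgal, the alpha L chain of LFA-1, had 5 and 212 UMIs in the same sets. Of 22 adhesion genes, 13 were at least 2-fold higher and 1 lower in the members, and 11 and 5 in the shallower ones, counting Vcam1. Over all genes 14.9% were higher and 12.8% lower in the members, and 22.2% and 19.3% in the shallower ones. Itga9 stood at 4.92 (4.43 to 5.41) and Itgb5 at 4.46 (4.07 to 4.85).

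Lysosomal genes were higher as a group. Of 32 tested, 27 were at least 2-fold higher in the members and none lower, with a median log2 ratio of 1.93, and their summed level was 21416 CPM against 4546 CPM in the other kept barcodes. In the shallower members 30 of 32 were higher and none lower, with a median of 2.44, and depth-matched 19 of 21 and none lower. Ctsb, the protease cathepsin B, ranged from 0 to 50 UMIs with a median of 3 and had a UMI in 334 of the 370 members. It stood at 2543 CPM (2433 to 2657), against 198 CPM (194 to 202), a log2 ratio of 3.69 (3.61 to 3.76). Ctsd, cathepsin D, had 2.70 (2.58 to 2.80), Psap, the precursor of the saposins, 2.63 (2.56 to 2.69), and Pla2g15, a lysosomal phospholipase, 4.09 (3.77 to 4.41). Lamp1, the major lysosomal membrane glycoprotein, stood at 634 CPM (580 to 692), against 125 CPM (122 to 129), with a log2 ratio of 2.34 (2.20 to 2.47). Among the lower log2 ratios of the list were those of Gla, alpha-galactosidase A, at -0.42 (-1.87 to 0.72) on 6 UMIs in the members, and of Dnase2a, the DNase that digests expelled nuclei of red cell precursors, at 0.54 (0.05 to 0.98).

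The Lamp1 promoter is shown because CACGTG, the core of the CLEAR element through which TFEB and its relatives act on lysosomal genes, occurs in it 4 times. Capitals mark the motif, which is its own reverse complement, in the 250 bases before the RefSeq start (GRCm38.p6), 5′ to 3′ on the gene's strand.
Lamp1 promoter (chr8:13158911-13159160, plus strand): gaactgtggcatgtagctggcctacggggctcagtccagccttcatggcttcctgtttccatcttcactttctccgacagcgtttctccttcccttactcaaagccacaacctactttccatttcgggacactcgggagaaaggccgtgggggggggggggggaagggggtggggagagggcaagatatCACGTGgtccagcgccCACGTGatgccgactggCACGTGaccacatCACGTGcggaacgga
The motif was found in 7 of 33 windows of 25 lysosomal genes (21.2%) and in 1978 of all 32851 windows (6.02%). TGANNNNGC, the letters of the antioxidant response element bound by NRF2, was found in 13 of 37 windows of haem and iron genes (35.1%) and in 11563 of all windows (35.2%). It was found in 16 of 33 windows of lysosomal genes (48.5%), 15 of 35 of transcription factor genes (42.9%) and 3 of 20 of core macrophage genes (15.0%). Among the factors themselves, Tfec and Mitf had 20 and 21 UMIs and log2 ratios of 3.55 (2.78 to 4.26) and 3.52 (2.77 to 4.21), Tfe3 had 1.58 (1.08 to 2.05), Tfeb 0.37 (-0.16 to 0.86) and Nfe2l2, which encodes NRF2, 1.02 (0.72 to 1.32).

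Genes of lipid and cholesterol handling were higher in part. Of 16 tested, 10 were at least 2-fold higher in the members and 1 lower, and in the shallower members 10 and 2. In the depth-matched comparison only 5 genes had enough UMIs over both sets to be tested, and all 5 were higher. A lipid gene scarce in the other barcodes reached the UMI minimum only by being high in the members. The depth-matched count is thus partly set by this filter and is a description. Apoe, the lipid carrier apolipoprotein E, ranged from 0 to 189 UMIs with a median of 4 and stood at 4070 CPM (3931 to 4213), against 231 CPM (227 to 236), a log2 ratio of 4.14 (4.08 to 4.20). Lpl, lipoprotein lipase, had 40 UMIs and 4.95 (4.36 to 5.53), and the cholesterol exporter gene Abcg1 1.49 (1.19 to 1.77). Scd1, the enzyme that makes unsaturated fatty acids, was lower, at 14.0 CPM against 173 CPM, a log2 ratio of -3.63 (-4.63 to -2.79). Of 19 antioxidant genes, 9 were higher and none lower in the members, and 9 and 1 in the shallower ones, among the higher Mt1, a metal-binding metallothionein, at 2.02 (1.70 to 2.31), Txn1, thioredoxin, at 1.85 (1.75 to 1.96) and Prdx1, a peroxiredoxin, at 1.67 (1.55 to 1.79). Gclm, a subunit of the glutathione-making enzyme and a known NRF2 target, stood at 72.3 CPM in the members and 81.5 CPM in the other kept barcodes.

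Secreted factors split by depth. Of 22 tested, 14 were at least 2-fold higher in the members and 2 lower, in the shallower members 13 and 4, and depth-matched 4 were higher and 5 lower of 10. Igf1, the insulin-like growth factor, ranged from 0 to 10 UMIs with a median of 0 and stood at 657 CPM (569 to 754) in the shallower and 101 CPM (74.9 to 134) in the deeper members, against 9.51 CPM (8.62 to 10.5) elsewhere, and its depth-matched log2 ratio was 3.09 (2.73 to 3.46). Il18, which encodes an inflammasome-processed cytokine, stood at 604 CPM (520 to 698) and 78.5 CPM (55.6 to 108) in the same sets, against 13.3 CPM (12.3 to 14.4). The chemokine genes Ccl3, Ccl4 and Ccl9 had 0, 1 and 0 UMIs in the shallower and 91, 81 and 47 in the deeper members. Il1b, an inflammatory cytokine gene, had 24 and 137 UMIs in the same sets. Ccr3, an eotaxin receptor gene, had 154 UMIs in the shallower members and a depth-matched log2 ratio of 4.30 (3.73 to 4.90). Of 24 growth factor and cytokine receptor genes, 16 were higher and 1 lower in all members, but 10 higher and 4 lower in the shallower ones. The shares over all genes were 14.9% higher and 12.8% lower in all members, and 22.2% and 19.3% in the shallower ones.

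MHC class II genes were not higher as a group. Of 10 tested, 1 was at least 2-fold higher in the members and 3 lower, in the shallower members 1 and 4, and depth-matched none of 9 was higher and 6 were lower. Their summed level was 11515 CPM in the members, against 11068 CPM in the other kept barcodes, of which many were B cells. Cd74, the invariant chain, stood at 3294 CPM (3093 to 3504) in the shallower and 7454 CPM (7213 to 7701) in the deeper members, against 5967 CPM (5944 to 5990). Ciita, the class II transactivator, had 4 UMIs in the shallower and 76 in the deeper members. Of 24 interferon-stimulated genes, 9 were higher and 2 lower in the members, and 8 higher and 4 lower in the shallower ones. All genes together had 14.9% higher and 12.8% lower in the members, and 22.2% and 19.3% in the shallower ones. Ifih1, a sensor of viral RNA, stood at 2.62 (2.32 to 2.91) and Irf7 at 2.14 (1.94 to 2.32). Of 12 Toll-like receptor genes and cofactors, 9 were higher and 1 lower in the members, and 9 and none in the shallower ones, among them Cd14 at 3.32 (2.92 to 3.69) and Tlr4, both part of lipopolysaccharide sensing, at 2.16 (1.42 to 2.82), while Cd180 stood at -1.03 (-1.50 to -0.60).

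In the actin machinery around WASP, the protein lost in the disease, few genes passed 2-fold. Of 35 genes tested, 5 were at least 2-fold higher in the members (14.3%, against 14.9% of all genes) and 1 lower. The list's median log2 ratio was 0.63, against 0.05 over all genes, and its summed level 49960 CPM, against 26837 CPM. In the depth-matched comparison 3 of 31 were higher and 2 lower, with a median of 0.10 and summed levels of 58365 and 58529 CPM. The list also holds the abundant genes Tmsb4x and Actb, with 10009 and 3455 of the 304513 UMIs of the shallower members. The summed levels thus mostly follow these genes and not those of WASP, WAVE and Arp2/3. Was stood at 82.1 CPM (53.1 to 121) in the shallower and 101 CPM (74.9 to 134) in the deeper members, with a log2 ratio of 0.56 (0.21 to 0.89) for all members, and had a UMI in 54 of the 370. Wipf1, which encodes the WASP partner WIP, stood at 152 CPM (126 to 182), against 116 CPM (113 to 119). Among the WAVE complex genes Cyfip1 had a log2 ratio of 1.60 (1.25 to 1.92) and Abi3 1.54 (1.26 to 1.81), and among the Arp2/3 subunits Arpc1b 0.89 (0.78 to 0.99) and Arpc5l -0.85 (-1.16 to -0.56). Coro1a, the leukocyte coronin, stood at 204 CPM (156 to 261) in the shallower and 1271 CPM (1172 to 1375) in the deeper members, against 1045 CPM (1035 to 1054) elsewhere. With no barcode tied to a genotype, these levels mix whatever WAS-KO and wild-type cells the table holds.

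Most immediate early genes and the nuclear RNAs Malat1 and Neat1 were lower in the shallower members, with Jun and Neat1 at or near 0. Of 17 immediate early genes, none was at least 2-fold higher and 12 were lower there, with a median log2 ratio of -1.86, whereas in the deeper members 8 were higher and none lower. Depth-matched, none of 9 was higher and 7 were lower. Jun and Fos, subunits of the AP-1 factor, had 1 and 9 UMIs in the 319 shallower members and 139 and 301 in the 51 deeper ones. Malat1, a long noncoding RNA held in the nucleus, had 88 UMIs in the shallower and 8083 in the deeper members, and no UMI in 248 (77.7%) and 4 (7.84%) of them. Neat1, which builds nuclear paraspeckles, had 0 and 289 UMIs. Lack of Malat1 went with depth in other barcodes too: at 500 to 1000 UMIs it was absent from 80.6% of members and 84.0% of other kept barcodes, and at 1500 to 3000 UMIs from 71.8% and 54.2%. Malat1, depth and the early genes thus moved together, and the part of cell integrity in these differences was not tested.

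**Figure D4:**
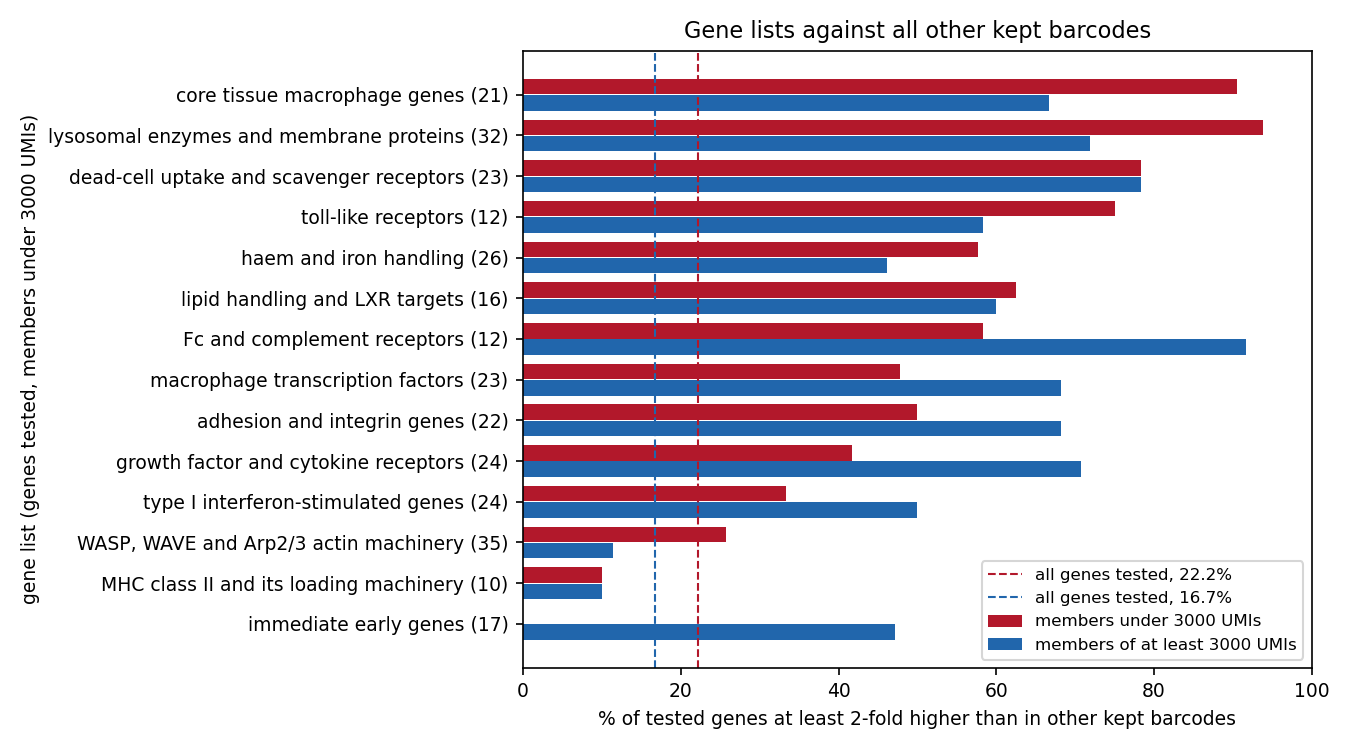
Share of the tested genes of each list that were at least 2-fold higher than in the other kept barcodes, in the shallower (red) and the deeper members (blue), with dashed lines at the shares over all tested genes of 22.2% and 16.7%. Macrophage, lysosomal and scavenger lists pass both lines in both sets, MHC class II genes pass neither, and immediate early genes pass the line in the deeper members and are at 0 in the shallower ones.

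Set against each other, the deeper members were at least 2-fold higher than the shallower in 159 of 1130 genes (14.1%) and lower in 158 (14.0%). The largest ratios belonged to granule and inflammatory genes of neutrophils and monocytes, with Chil3 at 7.88, S100a8 at 7.29 and Camp at 7.18, and to Gzma, a granzyme of killer cells, at 6.53. Of the 17769 UMIs of S100a8 in the members, 95.9% lay in 6 barcodes, as did 94.9% of the 15973 UMIs of S100a9 and 99.2% of the 4160 of Camp. In the shallower members alone S100a8 had a log2 ratio of -5.20 (-5.56 to -4.87) over the other kept barcodes, against 1.39 (1.37 to 1.41) in all members. The high level of these 3 genes over all members thus came from a few deeper barcodes.

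Classical monocytes, blood-borne cells of the same lineage, were set apart by UMI rules as 75 barcodes with a median of 12332 UMIs. The members were at least 2-fold higher than these in 182 of 2834 genes (6.42%) and lower in 212 (7.48%), and the shallower members higher in 179 of 2108 (8.49%) and lower in 471 (22.3%). Outside the rule, Fcna had a log2 ratio of 8.60 (7.24 to 10.48) in the shallower members, Ccr3 8.00 (6.12 to 11.06), Cd5l 7.32 (6.18 to 8.78), Itgad 6.91 (5.33 to 9.21) and Igf1 6.79 (5.64 to 8.25). The monocyte genes Ccr2, which guides these cells out of the marrow, and Fn1, fibronectin, had 2 and 1 UMIs in the shallower members and log2 ratios of -7.32 (-10.37 to -5.46) and -8.15 (-13.45 to -5.66). Among the lowest ratios of all members were the granule genes Prtn3, Ctsg, Elane and Mpo. They had 318, 156, 106 and 106 UMIs in the classical monocytes, against 4, 3, 0 and 0 in the members. The deepest barcode of the monocyte set and that of the neutrophil set both had 43377 UMIs. The monocytes are thus called by their UMI rules, and whether the set holds other cells was not tested. Of 18 haem and iron genes, which include the rule genes Hmox1 and Slc40a1, 12 were higher and 3 lower than in classical monocytes. Of 14 core macrophage genes 9 were higher and none lower. Lysosomal genes were mostly within 2-fold, with 10 of 26 higher and 1 lower. Lamp1 stood at 1074 CPM (961 to 1197) in the shallower members and 801 CPM (747 to 858) in classical monocytes, and Cd68 at 611 CPM (526 to 705) and 307 CPM (273 to 343). Of 15 receptor genes tested 2 were higher and 12 lower, and of 14 immediate early genes none was higher and 14 were lower. The shallower members had a median of 800 UMIs and the monocytes one of 12332, and the part of depth in these differences was not tested.

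Nonclassical monocytes, which patrol vessel walls, numbered 23 barcodes with a median of 5379 UMIs. The shallower members were at least 2-fold higher in 147 of 660 genes (22.3%) and lower in 106 (16.1%). Slpi, a protease inhibitor, had a log2 ratio of 7.37 (4.89 to 12.68), Axl 6.86 (4.37 to 12.17), Igf1 6.55 (4.05 to 11.86) and Il18 6.43 (3.93 to 11.74). Spn, the sialoglycoprotein CD43, had -8.06 (-13.38 to -5.56), Itgal -6.36 (-8.00 to -5.11) and Nr4a1, the factor these monocytes depend on, -5.04 (-6.28 to -4.02). Nr4a1 is also in the list of immediate early genes, most of which were lower in the shallower members than in the other kept barcodes. Mrc1 and Cd5l had no UMI in the nonclassical monocytes, which allows up to 3 counts each. The shallower members had a median of 800 UMIs and these monocytes one of 5379, and the part of depth was not tested.

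A further 74 kept barcodes had the C1q sum and met the B cell, T cell and haemoglobin limits but had at most 1 UMI of the iron genes, at a median of 856 UMIs. Compared with the shallower members they were at least 2-fold higher in 23 of 588 genes (3.91%) and lower in 74 (12.6%). The rule genes Hmox1, Slc40a1, Spic and Vcam1 are low there by choice. Outside the rule, Mrc1 stood at 765 CPM (670 to 870) in the shallower members and 36.8 CPM (10.0 to 94.1) in these barcodes, with a log2 ratio of these barcodes over the shallower members of -4.38 (-6.27 to -3.0). Itgad and Fcgrt had log2 ratios in the same direction of -3.70 (-6.00 to -2.11) and -3.55 (-5.85 to -1.96). Relative to the shallower members, the 431 barcodes that met the rule but for over 10% mitochondrial UMIs were at least 2-fold higher in 1.37% and lower in 2.83% of 1096 genes. In the 74 barcodes, Plac8 was higher by 4.71 (4.12 to 5.35) and Malat1 by 4.57 (4.25 to 4.91), on UMIs from barcodes of up to 16358 UMIs.

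Within the shallower members, the spread of each gene between barcodes was set beside counting error. Over the 1112 genes with at least 40 UMIs, the variance between barcodes divided by the variance expected from Poisson counting at each barcode's depth had a median of 1.17, and it passed 2 in 85 genes and 4 in 40. In a gene with few UMIs over 319 barcodes, counting error dominates. A value near 1 therefore cannot show that the gene's level is even. Lyz2, which encodes lysozyme M, had a value of 76.4. It had no UMI in 217 of the 319 shallower members and made up over 1% of the UMIs in 46. Its highest levels went with Marco, Timd4 and Pla2g2d, genes known from marginal zone and white pulp macrophages of the spleen. The 41 shallower members with at least 2 UMIs of these 3 genes together had a median Lyz2 share of 3.04% of UMIs, against 0 in the 231 with none. Of the 41, 27 had a Lyz2 share above 1%, as did 8 of the 47 with a single such UMI and 11 of the 231 with none. The 3 genes were chosen with results of these data known, and the groups are a description.

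**Figure D5:**
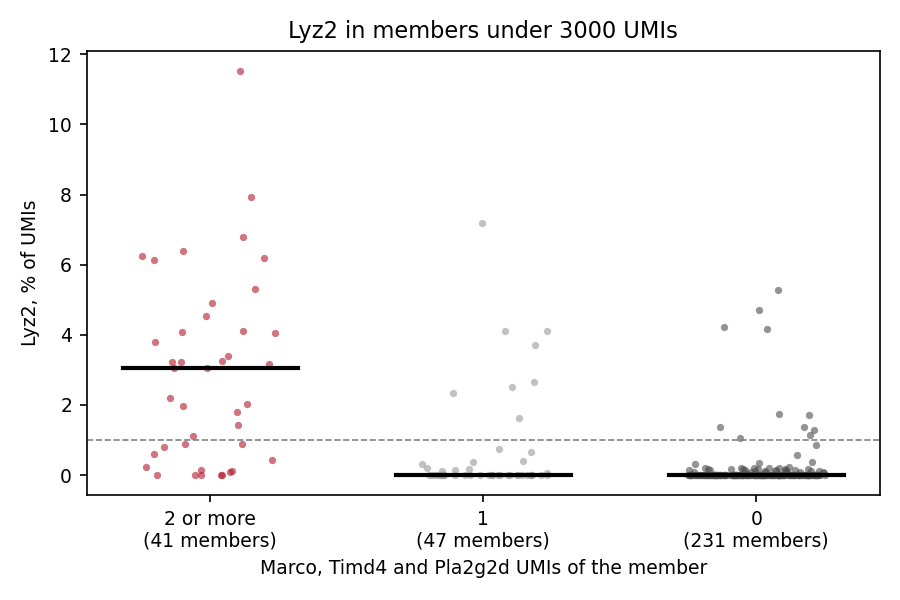
Share of UMIs from Lyz2 in each shallower member with 2 or more, 1 or 0 UMIs of Marco, Timd4 and Pla2g2d together, with each group's median as a black bar and a dashed line at 1%. Medians are 3.04% in the 41 members of the first group and 0 in the other groups.

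The 41 barcodes had a median of 1183 UMIs and the 231 a median of 747. Of 372 genes with at least 100 UMIs over both, 16 were at least 2-fold higher in the 41 (4.30%) and 39 lower (10.5%). Lyz2 stood at 33415 CPM (31869 to 35018), against 1614 CPM (1446 to 1795), a log2 ratio of 4.37 (4.20 to 4.54). Cd63, a tetraspanin of late endosomes, had 4.55 (3.75 to 5.44), Vim, vimentin, 3.26 (2.67 to 3.87), the fatty acid carrier gene Fabp5 2.61 (2.19 to 3.04), the interferon-gamma-induced chemokine gene Cxcl9 1.91 (1.33 to 2.49) and Apoe 1.51 (1.38 to 1.64). Of 6 haem and iron genes tested, none was higher and 4 were lower, a count that includes the rule genes Hmox1 and Slc40a1. Trf had -1.99 (-2.72 to -1.34) and Blvrb -1.35 (-1.99 to -0.77), while Ftl1 had 0.03 (-0.07 to 0.13) and Fth1 0.22 (0.11 to 0.33). Among other genes outside the rule that were lower in the 41 were Slpi at -3.45 (-4.78 to -2.39), Ccr3 at -2.18 (-3.52 to -1.09), Maf at -2.05 (-3.53 to -0.88), Mrc1 at -2.05 (-3.07 to -1.17) and Cd5l at -2.04 (-2.94 to -1.27). Mrc1 stood at 210 CPM (105 to 375) in the 41, against 867 CPM (745 to 1002) in the 231.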

How the data were processed

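The deposited file was 1 table of whole-number UMI counts per gene symbol and barcode, with no normalization by the authors. Per the labels' protocols, the 3-prime libraries used mm10-3.0.0 as their reference, and the build mm10 is also in the submitters' processing notes. The counting program is not given in the sources used here. Barcodes could not be tied to the samples, so the table was treated as 1 pooled sample, cells were not taken as replicates, and no p-value was computed.

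UMIs were summed over sets of barcodes and scaled to 1000000 (CPM). Levels have exact Poisson intervals, shares exact Clopper-Pearson intervals and ratios exact conditional binomial intervals, all at 95% and covering counting error only. With no count in a set, up to 3 counts were allowed for, and a ratio against a set at 0 used that floor. Genes with at least 100 UMIs over both sets were compared, and a ratio of at least 2-fold was counted. Shares used barcodes thinned to 500 UMIs. The ratio step was tested on simulated counts. Python 3.11.15, numpy 2.4.6, scipy 1.17.1, pandas 2.3.3 and scanpy 1.11.5 (for Scrublet) were used.

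Genes named in the text were drawn from the genes of the rule, Was, the 30 genes with the most CPM, the 12 highest and 12 lowest ratios of each comparison, and the gene lists, and not all of these are named. The members, the gene lists and the comparison sets were chosen with earlier results of these data known. A gene was left out of the lists and is not reported here. Promoter windows came from RefSeq (GRCm38.p6). Depth ranged from 501 to 25581 UMIs per member.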

Additional observations from a re-analysis of the deposited data

Results flagged for a closer look

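A further 431 barcodes met the UMI rule but had over 10% mitochondrial UMIs, 53.8% of the 801 barcodes that met it with at least 200 genes. They had a median of 955 UMIs, with a median of 19.8% from mitochondrial genes, and are not members. Compared with the shallower members, 15 of 1096 genes were at least 2-fold higher in them (1.37%) and 31 lower (2.83%), with a median log2 ratio of -0.32 over all tested genes. Malat1 had a log2 ratio of 1.91 and Atp1b3, a sodium pump subunit, 1.20, while Cd63 had -3.43, Pla2g2d -2.90 and Lyz2 -2.79.

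Another 257 kept barcodes reached both macrophage sums but failed the B cell limit (120 barcodes), the T cell limit (72) or the haemoglobin limit (111). They had a median of 9782 UMIs, and Scrublet called 15 of them doublets. They held 1376 of the 2042 C1qa UMIs found in kept barcodes outside the members.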

How the results depend on the processing

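No paired analysis was possible because no barcode is tied to a sample and each genotype has 1 sample. The share of members, 5.62%, was 7.57% with at most 5% mitochondrial UMIs, 10.8% with no such maximum, 3.47% with at least 500 genes, 4.52% with a C1q sum of at least 5, 4.93% and 3.75% with an iron gene sum of at least 3 and 5, and 4.54% with no B cell UMI allowed. Thinning to 1000 UMIs also left out 222 of the 370 members, which had fewer, and thinning to 500 left out none. The 1582 genes higher than in the other kept barcodes numbered 8703 with a minimum of 1 UMI, 725 and 497 after thinning to 1000 and 500 UMIs, and 263 with both sets under 3000 UMIs. The 1350 lower genes numbered 2815 as a mean over barcodes, 2039 with members under 3000 UMIs, 283 with both sets under 3000 and 2849 with the high-mitochondrial barcodes in place of the members. The 182 genes higher than in classical monocytes numbered 102 at 5% mitochondrial UMIs, 344 with no maximum, 2332 and 60 at minimums of 1 and 300 UMIs, 42 and 56 after thinning to 1000 and 500, and 82 with members of 3000 UMIs or more. The 212 lower genes numbered 381 with no mitochondrial maximum, 141 with size factors, 572 as a mean over barcodes, 1838 and 84 at minimums of 1 and 300, 30 and 24 after thinning to 1000 and 500, 471 and 118 with members under and over 3000 UMIs, and 652 with the high-mitochondrial barcodes. Settings with 500 UMIs, 3000 UMIs and the high-mitochondrial barcodes were chosen after the data had been seen. Direction reversed for S100a8, S100a9 and Camp, whose log2 ratios over the other kept barcodes were -0.40, -0.44 and -0.29 as a mean over barcodes, -0.38, -0.54 and -0.36 after thinning to 500, -5.20, -4.50 and -5.01 with members under 3000 UMIs, -4.72, -4.10 and -1.08 with both sets under 3000, and -4.95, -4.78 and -5.21 in the high-mitochondrial barcodes, where Lyz2 was also reversed at -0.49. Of 31 named genes at least 2-fold apart, 27 to 31 stayed past 2-fold in the same direction under each setting. The 31 include the rule genes C1qa, Hmox1, Slc40a1, Spic and Vcam1. Every setting still chose its barcodes by these genes, so their direction was largely set by the rule. Scaling by totals without haemoglobin, immunoglobulin and mitochondrial genes moved the median log2 ratio of all genes over the other kept barcodes by -0.22 and the mean over barcodes moved it by -0.23, and size factors moved that over classical monocytes by 0.18. The median depth of 870 UMIs limits what can be seen in a single member, and the cause of these moves was not tested.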

Other observations

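Among the shallower members, pancreatic genes had 768 UMIs, of which 674 lay in 1 barcode of 1228 UMIs and at most 16 in any other. Markers of megakaryocytes and platelets reached 20 UMIs in 2 shallower members, and B cell markers in 1. In the deeper members the neutrophil list had 43397 UMIs, with up to 11201 in 1 barcode, and 5 barcodes had at least 1000. No proliferation gene of 19 tested was at least 2-fold higher in the members, and in the shallower members 6 were lower. Over all genes, 14.9% were higher in the members and 19.3% lower in the shallower ones.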
